A study of Mus musculus with 6 samples.

Results

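The 10 genes described here are known for maternal transcripts made in the oocyte, and their RNA was measured in the mouse morula. These genes were taken by symbol from the 55364 genes of the table: *Gdf9*, *Bmp15*, *Zp2*, *Zp3*, *Nlrp5*, *Ooep*, *Tle6*, *Padi6*, *Khdc3* and *Btg4*. All 10 were listed and all 10 passed the filter on low values (at least 1 TPM in at least 3 of the 6 libraries), as did 17353 genes in all. To ask how the transcriptome of the morula depends on YY1, RNA was sequenced from pools of 10 morulae, with 3 pooled libraries for Control KD and 3 for *Yy1* KD. The embryos of both groups were BDF1 x BDF1, obtained by in vitro fertilization from females of 8 to 12 weeks and males of 10 to 12 weeks, and cultured in KSOM. A control siRNA or an siRNA against *Yy1* was injected into the cytoplasm between 2 and 3 h after insemination (10 µM for the *Yy1* siRNA), and the morulae were collected at 64 h. The siRNA acts on the RNA of the embryo, so that protein the egg already held is not removed by it. By immunofluorescence of morulae, the study reported that YY1 protein was efficiently depleted, and protein was not measured here. A pool of embryos gives no value for a single embryo. Total RNA was measured, in which transcripts inherited from the oocyte and transcripts newly made by the embryo cannot be told apart. Likewise, fewer cells that hold a transcript and less of it per cell cannot be told apart in these pools.

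The growing oocyte stores RNA and protein that carry the embryo through fertilization and the first cleavages, and most of the stored RNA is degraded as the embryonic genome is activated. GDF9 and BMP15 are ligands of the TGF-beta family that the oocyte secretes to the surrounding granulosa cells. ZP2 and ZP3 are glycoproteins of the zona pellucida, the coat to which sperm bind and which still surrounds the morula. NLRP5 (also known as MATER), OOEP (FLOPED), TLE6 and KHDC3 (FILIA) form the subcortical maternal complex beneath the membrane of the egg, and PADI6 is required, with them, for the cytoplasmic lattices of the oocyte. BTG4 recruits the CCR4-NOT deadenylase to maternal mRNAs and so promotes their decay.

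The values are TPM, the read pairs on a gene divided by the length of its annotated exons and brought to a sum of 1000000 per library. Recovered read pairs on genes were between 11793509 and 24417789 per library. The level of *Yy1* was 95.3 ± 5.26 TPM (SD, n = 3) in Control KD and 8.65 ± 0.298 TPM (SD, n = 3) in *Yy1* KD morulae, 9.07% of the control. Of 12 markers of the morula and its first lineages, all passed the filter, with *Pou5f1* at 706 ± 32.4 and 678 ± 31.6 TPM, *Nanog* at 322 ± 70.4 and 276 ± 52.5 TPM and *Krt8* at 291 ± 61.8 and 211 ± 41.0 TPM (SD, n = 3 each). By limma, *Tfap2c* was the only one of the 12 that was called, beside 6.11% of all genes tested. It fell from 183 ± 7.24 to 126 ± 9.14 TPM (SD, n = 3). This call was lost when any single library other than *Yy1* KD replicate 1 was left out (limma adjusted p from 0.0543 to 0.0668). The adhesion gene *Cdh1*, at 199 ± 52.6 and 114 ± 32.4 TPM, was called lower by limma-voom but not by limma (adjusted p = 0.125), and *Sox2*, at 10.98 ± 2.91 and 5.60 ± 1.51 TPM, by neither (limma adjusted p = 0.0942; SD, n = 3). The summed level of 12 markers of cumulus and granulosa cells, which surround the egg and also respond to GDF9, was between 1.48 and 3.44 TPM in Control KD and between 1.71 and 3.73 TPM in *Yy1* KD libraries. Of these markers 5 were at 0 in all 6 libraries (*Fshr*, *Cyp19a1*, *Ptx3*, *Tnfaip6* and *Has2*), and those with the highest level were *Star*, *Foxl2* and *Inha*. The 6 sperm markers summed to at most 0.865 TPM (Control KD) and 2.26 TPM (*Yy1* KD). *Tnp1* was at 0 throughout, and *Prm1*, *Prm2* and *Tnp2* had the highest levels.

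The 10 transcripts differed widely in level. In Control KD morulae, *Khdc3* was at 778 ± 37.0 TPM (SD, n = 3), 24.0 times the level of the next gene, *Padi6*, at 32.4 ± 4.29 TPM. *Khdc3* alone took between 79.7% and 90.5% of the summed TPM of the 10 genes in a library, and its mean level stood above 98.9% of the genes tested. *Gdf9* followed at 18.4 ± 3.08 TPM. The 3 values of each of these 3 genes did not overlap those of the next in the order. Below them, *Zp3* (9.97 ± 1.60 TPM), *Zp2* (9.01 ± 2.10), *Bmp15* (7.73 ± 1.09), *Nlrp5* (6.504 ± 2.203), *Btg4* (6.22 ± 2.27), *Tle6* (5.55 ± 0.889) and *Ooep* (3.55 ± 1.06) formed a continuous series in which the values of each gene overlapped those of its neighbour in Control KD libraries. In *Yy1* KD libraries, neighbours in this series did not overlap for *Bmp15* and *Nlrp5* or for *Tle6* and *Ooep*. Over all 6 libraries the levels of the 9 genes other than *Khdc3* stood above between 23.5% (*Ooep*) and 77.1% (*Padi6*) of the genes tested. The annotated exons used for TPM are longer than the main coding transcript for some of the genes, by a factor of up to 1.72 for *Btg4*. Scaled to its coding transcript, *Btg4* would stand at 10.7 TPM in Control KD, *Tle6* at 8.50 TPM and *Nlrp5* at 8.99 TPM, so that the order within the lower series depends on the transcript taken. The plot of levels by library shows the gap between *Khdc3* and the other genes.

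**Figure D1:**
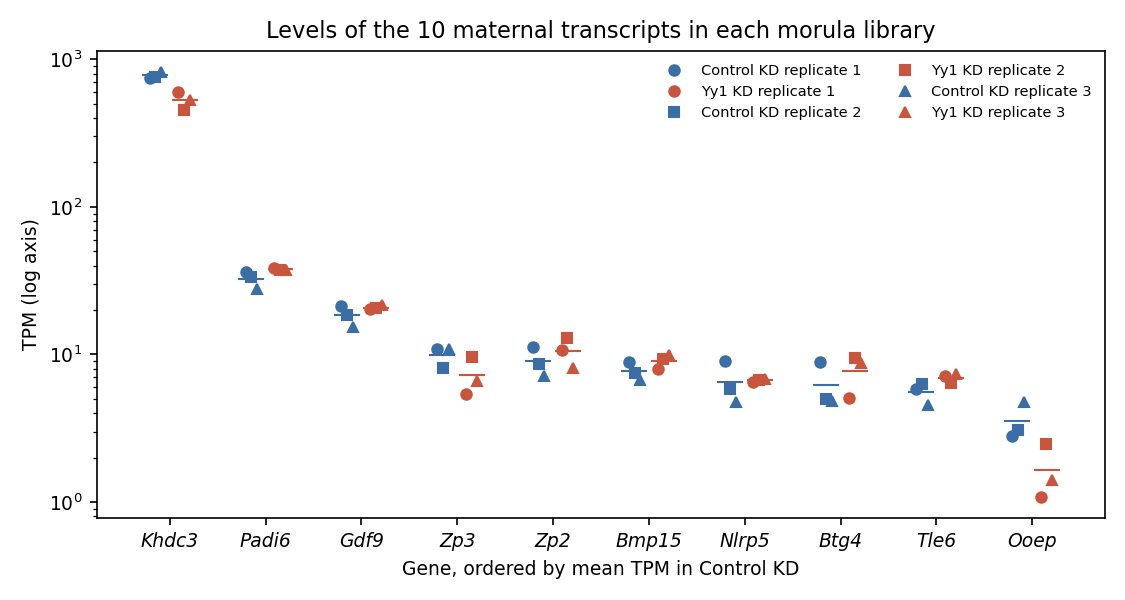
TPM of each gene (log axis) in the 3 Control KD libraries (blue) and the 3 *Yy1* KD libraries (red), with the mean of each group as a line and the replicate given by the symbol. The means of *Khdc3* are 778 TPM (Control KD) and 527 TPM (*Yy1* KD), all other genes lie under 40 TPM, and the *Yy1* KD values of *Khdc3* and *Ooep* lie below all their Control KD values.

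After *Yy1* KD, 1 of the 10 genes was called at an adjusted p under 0.05 (limma over all genes tested, with Benjamini-Hochberg adjustment). It was *Khdc3*, which fell. Among all genes tested, 6.11% were called in the same comparison (4.20% of all genes tested lower and 1.92% higher), so that 1 gene in 10 is near the share of the whole table. Of the 10 genes, 7 had a positive and 3 a negative log2 fold change, with a median of 0.19, beside a median of -0.02 over all genes tested. For 4 of the 10 genes the values of the 2 groups did not overlap, lower in *Yy1* KD for *Khdc3* and *Ooep* and higher for *Padi6* and *Tle6*, where 30.1% of all genes tested had groups without overlap. The median rested in part on single libraries. It was 0.060 without Control KD replicate 3, 0.098 without *Yy1* KD replicate 2 and 0.30 without Control KD replicate 1.

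**Figure D2:**
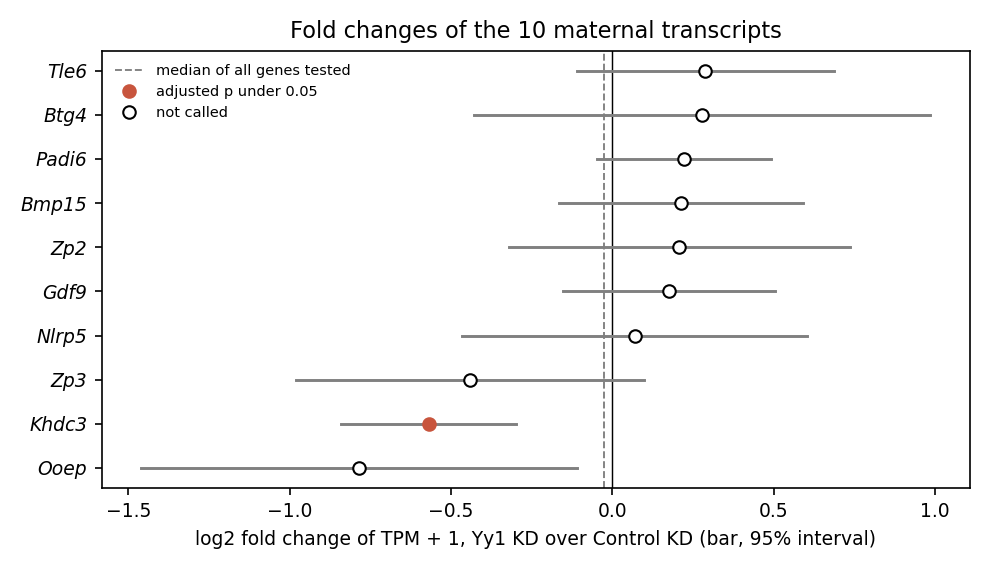
Log2 fold change of TPM + 1 between *Yy1* KD and Control KD for each gene, with its 95% interval from limma as a bar; the filled point was called, open points were not, and the dashed line is the median of all genes tested (-0.02). The intervals of *Khdc3* (-0.84 to -0.30) and *Ooep* (-1.46 to -0.11) lie below 0 before adjustment for the number of genes, and those of the other 8 genes include 0.

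The sequence just before the transcription start is shown for 4 genes, *Khdc3*, *Ooep* and *Zp3*, which had negative fold changes, and *Padi6*, the highest of the genes with a positive one. The runs come from RefSeq (GRCm38.p6) and leave out bases that GENCODE places in exons of the same gene. Capitals mark the E-box (CANNTG, the sequence bound by FIGLA, an oocyte factor of the zona genes) and the element of NOBOX, another oocyte factor (TAATTA or TAATTG), each searched on both strands. The *Khdc3* run is chr9:73102205-73102397 (plus strand), the *Ooep* run chr9:78378726-78378838 (minus strand), the *Zp3* run chr5:135979855-135980098 (plus strand) and the *Padi6* run chr4:140742644-140742893 (minus strand), each written 5′ to 3′ in the direction of transcription. The *Khdc3* run ends at the RefSeq start, which lies 562 bases downstream of the GENCODE start, so that in GENCODE the run is intronic. The *Ooep* run ends at the GENCODE start, 137 bases upstream of the RefSeq start.
*Khdc3*: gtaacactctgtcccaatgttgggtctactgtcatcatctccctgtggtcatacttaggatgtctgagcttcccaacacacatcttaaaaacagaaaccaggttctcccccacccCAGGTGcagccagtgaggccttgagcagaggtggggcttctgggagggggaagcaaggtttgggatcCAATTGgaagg
*Ooep*: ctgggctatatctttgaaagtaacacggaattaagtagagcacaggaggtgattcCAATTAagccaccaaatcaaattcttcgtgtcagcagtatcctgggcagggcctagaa
*Zp3*: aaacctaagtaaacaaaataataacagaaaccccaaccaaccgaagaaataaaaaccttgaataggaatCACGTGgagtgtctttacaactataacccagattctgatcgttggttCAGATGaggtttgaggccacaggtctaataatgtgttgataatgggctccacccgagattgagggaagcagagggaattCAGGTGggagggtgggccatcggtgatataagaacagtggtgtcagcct
*Padi6*: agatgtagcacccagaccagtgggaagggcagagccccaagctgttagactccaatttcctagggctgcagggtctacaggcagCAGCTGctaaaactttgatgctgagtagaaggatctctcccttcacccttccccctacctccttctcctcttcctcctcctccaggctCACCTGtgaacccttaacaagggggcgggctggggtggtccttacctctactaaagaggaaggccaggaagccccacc

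RefSeq windows of 300 bases, 250 before and 50 after a start, were found for 8 of the 10 genes (10 windows, since *Nlrp5* and *Tle6* have several starts); *Gdf9* and *Zp2* had none. The YY1 consensus GCCATNTT, searched on both strands, was in 0 of these 10 windows and in 6.05% of all 32851 windows. The shorter core GCCAT, which the consensus contains, was in 2 of the 10, those of *Zp3* and the upstream start of *Tle6*, and in 40.5% of all windows. An E-box was in 10 of the 10 windows and in 72.3% of all windows, and a NOBOX element in 4 of the 10 (*Padi6*, *Ooep*, *Bmp15* and the upstream start of *Nlrp5*) and in 12.4% of all windows. The window of *Khdc3* held 5 E-boxes and that of *Zp3* 4. The windows include exonic bases, so some matches lie outside the printed runs. Counted from the RefSeq start, these are the *Khdc3* E-boxes from -246, -225 and -223, of which those from -225 and -223 overlap. They also include the only *Ooep* E-box (from -78), a *Zp3* E-box (from 7) and the *Padi6* NOBOX element (from 8). A match of letters is not a binding site, and sequence outside these windows was not searched.

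*Khdc3* (ENSMUSG00000092622.8), which encodes the KH domain protein FILIA, is annotated on chromosome 9 (GRCm38, 73101836 to 73104438, plus strand). Its level was 753, 761 and 821 TPM in Control KD and 604, 451 and 527 TPM in *Yy1* KD libraries. Each *Yy1* KD library was below each Control KD library. The mean went from 778 ± 37.0 to 527 ± 76.8 TPM (SD, n = 3), 67.8% of the control, and this difference was called (log2 fold change -0.57 ± 0.11, standard error; adjusted p = 0.0388 in limma). The 2-sided exact permutation test gave p = 0.1, the smallest that 3 against 3 libraries allow. These values rest on between 5084 and 16106 read pairs per library. The call was near the threshold. It was lost without a filter on low values (limma adjusted p = 0.0985) and when any single library other than *Yy1* KD replicate 1 was left out (0.0902 to 0.125), while the log2 fold change stayed between -0.59 and -0.46 over these fits. Without *Yy1* KD replicate 1 it was -0.67 and was called (limma adjusted p = 0.0389).

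Read pairs of *Khdc3* are shared with another annotated gene. *Gm20509* (ENSMUSG00000092310.2) is annotated as a protein-coding gene that joins the exons of *Khdc3* to exons of the downstream gene *Rsl24d1*, and it covers 790 of the 2050 exonic bases of *Khdc3* (38.5%). Pairs on such bases were divided between the genes that hold them. *Gm20509* was at 1046, 1015 and 1019 TPM in Control KD and 833, 656 and 760 TPM in *Yy1* KD libraries, with the same order of the *Yy1* KD libraries as *Khdc3*. It was also called lower (log2 fold change -0.46, limma adjusted p = 0.0448). *Rsl24d1*, a ribosome biogenesis gene, was at 211 ± 21.2 and 230 ± 3.93 TPM (SD, n = 3) and did not pass the test (log2 fold change 0.13; adjusted p = 0.436, limma). With *Khdc3* and *Gm20509* taken as 1 gene, the level was 1145, 1139 and 1194 TPM in Control KD and 916, 699 and 814 TPM in *Yy1* KD, 69.8% of the control (log2 fold change -0.53, limma adjusted p = 0.0402). *Khdc3* thus passed the threshold both with the shared pairs divided and when summed with *Gm20509*. These values rest in part on the same read pairs and are not separate support.

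**Figure D3:**
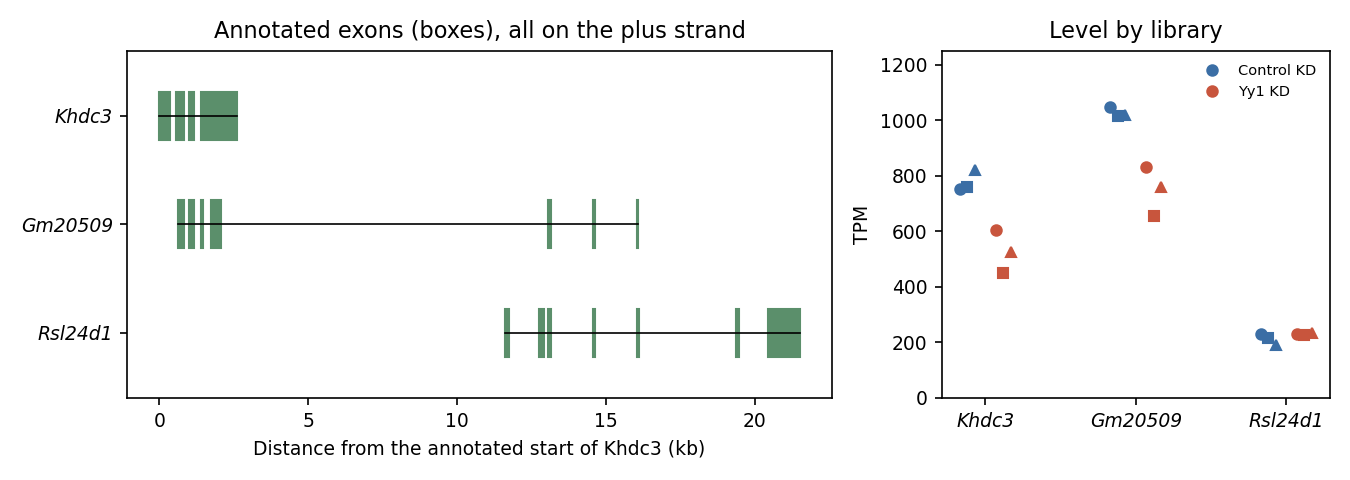
Left, annotated exons of *Khdc3*, *Gm20509* and *Rsl24d1* (boxes) by distance in kb from the annotated start of *Khdc3*; right, TPM of the 3 genes in each Control KD (blue) and *Yy1* KD (red) library. The first exons of *Gm20509* lie over those of *Khdc3*; both genes are lower in all 3 *Yy1* KD libraries, while *Rsl24d1* lies between 189 and 234 TPM in both groups.

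*Ooep* (ENSMUSG00000032346.7, chromosome 9 from 78376109 to 78378725, minus strand) encodes another small KH domain protein of the complex and had the largest fold change of the 10 genes. Its level was 2.80, 3.08 and 4.76 TPM in Control KD and 1.09, 2.47 and 1.42 TPM in *Yy1* KD libraries. The groups did not overlap, but the highest *Yy1* KD library was close to the lowest Control KD library. The log2 fold change of -0.78 ± 0.28 (standard error) was not called (limma p = 0.0288 before and 0.155 after adjustment; exact permutation test, p = 0.1). With 15 to 76 read pairs per library, *Ooep* was the gene with the fewest read pairs of the 10. Over the other settings its log2 fold change was between -1.15 and -0.60, and none of them called it. Its neighbour *Dppa5a*, which encodes a KH domain protein of pluripotent cells, was at 863 ± 74.6 and 742 ± 72.5 TPM (SD, n = 3) and did not pass the test (log2 fold change -0.22; adjusted p = 0.257, limma).

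The remaining genes of this group had positive fold changes that were not called. *Padi6* (ENSMUSG00000040935.12, chromosome 4 from 140727355 to 140742643, minus strand), a member of the peptidylarginine deiminase family, was at 36.1, 33.4 and 27.7 TPM in Control KD and 38.3, 37.5 and 37.4 TPM in *Yy1* KD libraries. All *Yy1* KD values were above the highest Control KD value. The log2 fold change was 0.22 (95% interval -0.05 to 0.49, limma adjusted p = 0.297). *Tle6* (ENSMUSG00000034758.12, chromosome 10 from 81590904 to 81601073, minus strand), a protein of the Groucho family, was at 5.82, 6.27 and 4.56 TPM in Control KD and 7.19, 6.36 and 7.32 TPM in *Yy1* KD libraries, again without overlap (log2 fold change 0.29, interval -0.11 to 0.69, limma adjusted p = 0.354). *Nlrp5* (ENSMUSG00000015721.18, chromosome 7 from 23385889 to 23441922, plus strand), which encodes an NLR protein, was at 8.97, 5.81 and 4.73 TPM in Control KD and 6.47, 6.68 and 6.83 TPM in *Yy1* KD libraries. Its *Yy1* KD values lay within the range of the Control KD values, and the log2 fold change of 0.07 (interval -0.47 to 0.60, limma adjusted p = 0.888) turned to -0.11 without Control KD replicate 3.

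Summed without *Khdc3*, these 4 genes were at 53.7, 48.6 and 41.7 TPM in Control KD and 53.0, 53.0 and 53.0 TPM in *Yy1* KD libraries. The sum is mostly *Padi6* and is given as a description. Within a library, where scaling cancels, the ratio of *Khdc3* to *Padi6* was 20.9, 22.8 and 29.6 in Control KD and 15.8, 12.04 and 14.1 in *Yy1* KD libraries, so that the mean ratio in *Yy1* KD was 57.2% of the control. The ratio of *Ooep* to *Padi6* was 0.114 ± 0.0509 in Control KD and 0.0441 ± 0.0195 in *Yy1* KD libraries (SD, n = 3). Neither ratio overlapped between groups, and the exact permutation test gave p = 0.1, the smallest that 3 libraries each allow. This separation followed from the single genes, since *Khdc3* and *Ooep* were lower and *Padi6* higher without overlap. These 2 ratios are therefore a description and add no separate support. They also hold the rise of *Padi6* to 116% of the control, which was not called. The ratio of *Tle6* to *Padi6* was 0.171 ± 0.0145 and 0.185 ± 0.0133, and that of *Nlrp5* to *Padi6* 0.198 ± 0.0439 and 0.177 ± 0.00684 (SD, n = 3), with overlapping groups and exact permutation p = 0.2 and 0.8.

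The partners of the complex and the other NLR genes of the oocyte were read from a list of 10 genes. None was called by limma, beside 6.11% of all genes tested. In limma 1 had an unadjusted p under 0.05. Limma-voom called 1, *Nlrp4a*, higher, where it called 2050 genes over the whole table, beside 1061 by limma. Of the 10, 9 had a positive log2 fold change, beside 47.2% of all genes tested, and the median was 0.22. The groups of 4 of the 10 did not overlap, beside 30.1% of all genes tested. *Zbed3*, which binds within the complex, was the highest of them and was at 21.5 ± 2.495 and 27.9 ± 4.58 TPM (SD, n = 3; log2 fold change 0.36, limma adjusted p = 0.213). *Nlrp14* was at 10.4 ± 2.75 and 12.1 ± 2.40 TPM and *Nlrp4f* at 7.28 ± 1.83 and 8.83 ± 3.58 TPM (SD, n = 3). The NLR genes belong to a family of close copies, and read pairs on such copies are uncertain.

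*Gdf9* (ENSMUSG00000018238.6, chromosome 11 from 53431023 to 53437904, plus strand) was at 21.4, 18.6 and 15.2 TPM in Control KD and 20.2, 20.5 and 21.5 TPM in *Yy1* KD libraries. *Bmp15* (ENSMUSG00000023279.7, X chromosome from 6314107 to 6320721, minus strand) was at 8.90, 7.53 and 6.74 TPM in Control KD and 7.98, 9.33 and 9.96 TPM in *Yy1* KD libraries. For both ligands the groups overlapped, through Control KD replicate 1. The log2 fold changes were 0.17 for *Gdf9* (95% interval -0.15 to 0.50, limma adjusted p = 0.498) and 0.21 for *Bmp15* (interval -0.17 to 0.59, limma adjusted p = 0.475). The ratio of *Gdf9* to *Bmp15* was between 2.16 and 2.53 in all 6 libraries, with 2.38 ± 0.107 in Control KD and 2.30 ± 0.205 in *Yy1* KD (SD, n = 3; exact permutation test, p = 0.6).

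Of 13 genes for the receptors of GDF9 and BMP15, related receptors and SMADs, 11 were tested and limma called 2, both lower, beside 6.11% of all genes tested. *Tgfbr1*, the type I receptor used by GDF9, fell from 10.6 ± 1.07 to 4.59 ± 0.342 TPM (SD, n = 3; log2 fold change -1.05 ± 0.15, standard error; limma adjusted p = 0.0155). *Smad7*, an inhibitor of the pathway, fell from 33.6 ± 1.56 to 20.6 ± 1.04 TPM (SD, n = 3; log2 fold change -0.68, limma adjusted p = 0.0145). Both calls were lost when any Control KD replicate was left out (limma adjusted p from 0.0560 to 0.0689), and that of *Tgfbr1* also without *Yy1* KD replicate 2 (0.0560). The type I receptor *Bmpr1a* was at 31.5 ± 2.57 and 24.4 ± 0.266 TPM without overlap but was not called (limma adjusted p = 0.0780), and *Smad4*, the common partner of the receptor SMADs, was at 39.7 ± 2.61 and 40.0 ± 1.34 TPM (log2 fold change 0.01; SD, n = 3). *Smad3*, a SMAD of the GDF9 branch, was at 13.3 ± 2.79 and 19.4 ± 4.78 TPM (SD, n = 3) without overlap, and was called higher by limma-voom but not by limma (log2 fold change 0.51, adjusted p = 0.197). Over the 11 genes, the median of the log2 fold changes was -0.25. The receptors also serve other ligands of the family, so that these values are not specific to the oocyte ligands.

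Neither zona gene was called. *Zp2* (ENSMUSG00000030911.7, chromosome 7 from 120126772 to 120145291, minus strand) was at 11.3, 8.60 and 7.13 TPM in Control KD and 10.7, 12.9 and 8.08 TPM in *Yy1* KD libraries. *Zp3* (ENSMUSG00000004948.12, chromosome 5 from 135980099 to 135988624, plus strand) was at 10.95, 8.13 and 10.8 TPM in Control KD and 5.42, 9.62 and 6.56 TPM in *Yy1* KD libraries. *Zp3* was lower in *Yy1* KD replicates 1 and 3, while replicate 2 lay within the Control KD values, and the groups of *Zp2* overlapped throughout. The log2 fold change was 0.21 for *Zp2* (95% interval -0.32 to 0.74, limma adjusted p = 0.624) and -0.44 for *Zp3* (interval -0.98 to 0.10, limma adjusted p = 0.296). The ratio of *Zp3* to *Zp2* was 0.971, 0.944 and 1.52 in Control KD and 0.506, 0.747 and 0.812 in *Yy1* KD libraries, without overlap. The exact permutation test gave p = 0.1, the smallest that 3 libraries each allow. This ratio combines a lower mean of *Zp3* with a higher mean of *Zp2*, neither of which was called, and is given as a description. *Zp3* had 43 to 111 and *Zp2* 109 to 242 read pairs per library. Of the 4 other zona and egg surface genes, none was called by limma, beside 6.11% of all genes tested. *Cd9* alone had an unadjusted p under 0.05, and limma-voom called it lower. *Zp1*, another zona glycoprotein, was at 3.97 ± 0.565 and 3.95 ± 1.52 TPM, *Astl*, the protease that cleaves ZP2 after fertilization, at 2.46 ± 0.184 and 3.47 ± 0.416 TPM, and *Cd9*, a tetraspanin needed for gamete fusion that many cells express, at 232 ± 55.9 and 139 ± 24.7 TPM (SD, n = 3; log2 fold change -0.72, limma adjusted p = 0.0985).

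*Btg4* (ENSMUSG00000032056.10, chromosome 9 from 51060901 to 51119875, plus strand) was at 8.84, 5.002 and 4.82 TPM in Control KD and 5.05, 9.46 and 8.69 TPM in *Yy1* KD libraries. In each group 1 library stood apart from the others, high in Control KD and low in *Yy1* KD, so that the groups overlapped. The log2 fold change was 0.28 (95% interval -0.43 to 0.99, limma adjusted p = 0.624), the widest interval of the 10 genes, and it ranged from 0.13 to 0.52 when a library was left out. Of 26 genes for deadenylation and maternal mRNA decay, 24 were tested, and limma called 1 higher and 2 lower, beside 6.11% of all genes tested in either direction, with a median log2 fold change of 0.08. *Btg1*, a relative of BTG4 with antiproliferative activity, rose from 45.1 ± 5.01 to 89.0 ± 9.38 TPM (SD, n = 3; log2 fold change 0.97, limma adjusted p = 0.0126). *Btg3*, another relative, fell from 24.6 ± 2.505 to 16.1 ± 1.75 TPM (log2 fold change -0.58, limma adjusted p = 0.0474), a call lost when any single library was left out (0.0692 to 0.143), with median-ratio scaling (0.0505), with quantile normalization (0.0641) and without a filter on low values (0.0948). *Cnot6*, a catalytic deadenylase of CCR4-NOT, fell from 34.2 ± 4.82 to 16.7 ± 1.95 TPM (log2 fold change -0.98, limma adjusted p = 0.0174; SD, n = 3). The call of *Btg1* was lost without Control KD replicates 1 or 3 (0.0514 and 0.0599), and that of *Cnot6* without Control KD replicates 2 or 3 or *Yy1* KD replicates 2 or 3 (0.0506 to 0.0753). With limma-voom, the calls were 3 higher and 2 lower, the additional genes being *Btg2* and *Pan3*. Over the whole table limma-voom called 2050 genes, beside 1061 by limma, so the share of 6.11% does not apply to its calls. *Btg2*, a further relative of BTG4, was at 10.4 ± 3.99 and 20.8 ± 3.12 TPM without overlap (log2 fold change 0.995, limma adjusted p = 0.0992). *Pan3*, a subunit of the PAN2-PAN3 deadenylase, was at 29.7 ± 2.35 and 37.5 ± 0.639 TPM (log2 fold change 0.33, limma adjusted p = 0.0877; SD, n = 3). The scaffold *Cnot1* (196 ± 5.57 and 205 ± 3.09 TPM), the catalytic subunit *Cnot8* (182 ± 22.7 and 213 ± 11.9 TPM) and *Ythdf2*, a reader of methylated RNA (137 ± 7.66 and 160.4 ± 15.9 TPM), were the highest of the list and were not called (SD, n = 3).

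Most of the 10 transcripts ranked the Control KD libraries alike, a pattern seen after the values were known. Control KD replicate 1 held the highest of the 3 Control KD values for 7 of the 10 genes, beside 34.8% of all genes tested. Control KD replicate 3 held the lowest for 7 of the 10, beside 31.0% of all genes tested. The exceptions to both included *Khdc3* and *Ooep*, which were highest in replicate 3 and lowest in replicate 1. Among the 10 partners and NLR genes, replicate 1 was highest for 6 and replicate 3 lowest for 8. The pattern was weaker or not seen in other lists: among 20 other oocyte-stored genes these counts were 9 and 10, and among 4 oocyte transcription factors 2 and 1. Summed without *Khdc3*, the 9 other genes were at 115, 96.4 and 86.5 TPM in Control KD and 102, 115 and 108 TPM in *Yy1* KD libraries. The recovered depth of the Control KD libraries was 12519597, 24417789 and 18109905 read pairs, so that the library highest for these genes was the shallowest of its group. Whether depth or the stage of the embryos in a pool has a part in this pattern was not tested.

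In *Yy1* KD libraries some of these genes had very close values. The coefficient of variation was 1.28% for *Padi6*, 2.67% for *Nlrp5* and 3.18% for *Gdf9* in *Yy1* KD, against 13.3%, 33.9% and 16.7% in Control KD. In all, 7 of the 10 genes varied less in *Yy1* KD than in Control KD, as did 47.8% of all genes tested, whereas *Khdc3* went from 4.75% to 14.6%, *Ooep* from 29.9% to 43.5% and *Zp3* from 16.0% to 30.2%. With 3 libraries a coefficient of variation is imprecise, and the difference in spread was not tested. In *Yy1* KD libraries *Padi6* had 469 to 750 read pairs, *Nlrp5* 164 to 243 and *Gdf9* 216 to 317.5. The spread that counting such numbers of read pairs gives was not estimated, so the close values do not show that these transcripts vary little. On the log2 scale, the SD within groups ranged from 0.14 (*Padi6*) to 0.43 (*Btg4*). It was at the 18.6th percentile of genes within 1.25-fold of its level for *Tle6*, the lowest of the 10, and at the 75.9th for *Btg4*, the highest.

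**Figure D4:**
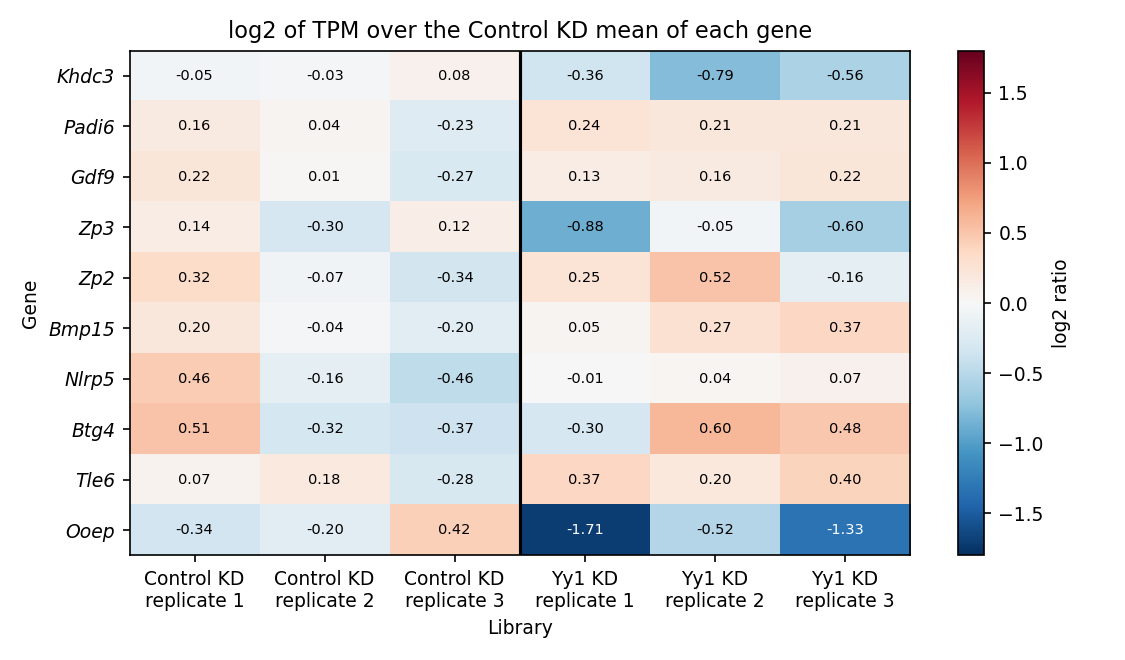
Log2 ratio of TPM in each library (columns) to the Control KD mean of the gene (rows, ordered by level), printed in each cell and coloured from blue (lower) to red (higher). Control KD replicate 1 is above and replicate 3 below the mean for *Padi6*, *Gdf9*, *Zp2*, *Bmp15*, *Nlrp5*, *Btg4* and *Tle6*, and all *Yy1* KD cells of *Khdc3*, *Ooep* and *Zp3* are below 0.

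Other genes known for transcripts that the oocyte stores were read from a list of 22 genes, of which 20 were tested. None was called by limma or limma-voom, and 1 had an unadjusted p under 0.05 in limma. Limma called 6.11% of all genes tested, so that 0 of 20 is near the share of the whole table. There were 13 positive and 7 negative log2 fold changes, beside 47.2% positive among all genes tested, and the median was 0.07. *Dppa3*, which protects the maternal genome from demethylation, was by far the highest at 4539 ± 322 and 4765 ± 96.7 TPM (SD, n = 3; log2 fold change 0.07, limma adjusted p = 0.673). *Igf2bp2*, an RNA-binding protein, was at 107 ± 9.31 and 94.4 ± 4.63 TPM, and *Spin1*, a spindle and chromatin protein, at 42.9 ± 2.65 and 47.8 ± 3.82 TPM (SD, n = 3). Of 6 oocyte transcription factors, 4 were tested and none was called by limma, beside 6.11% of all genes tested. In limma 2 had an unadjusted p under 0.05, *Sohlh2* and *Taf4b*, in opposite directions. The mean of *Sohlh2* in *Yy1* KD was 33.6% of the control, without overlap (log2 fold change -0.71, limma adjusted p = 0.152). *Sohlh2* had 4 to 31 read pairs per library. *Taf4b*, a TFIID subunit that limma-voom called higher, was at 51.2 ± 8.21 and 64.1 ± 4.47 TPM, whereas *Nobox* (2.04 ± 0.277 and 1.92 ± 0.770 TPM) and *Lhx8* (1.66 ± 0.726 and 1.37 ± 0.508 TPM) were near the filter (SD, n = 3). The plot of gene lists sets the 10 maternal transcripts beside these groups.

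**Figure D5:**
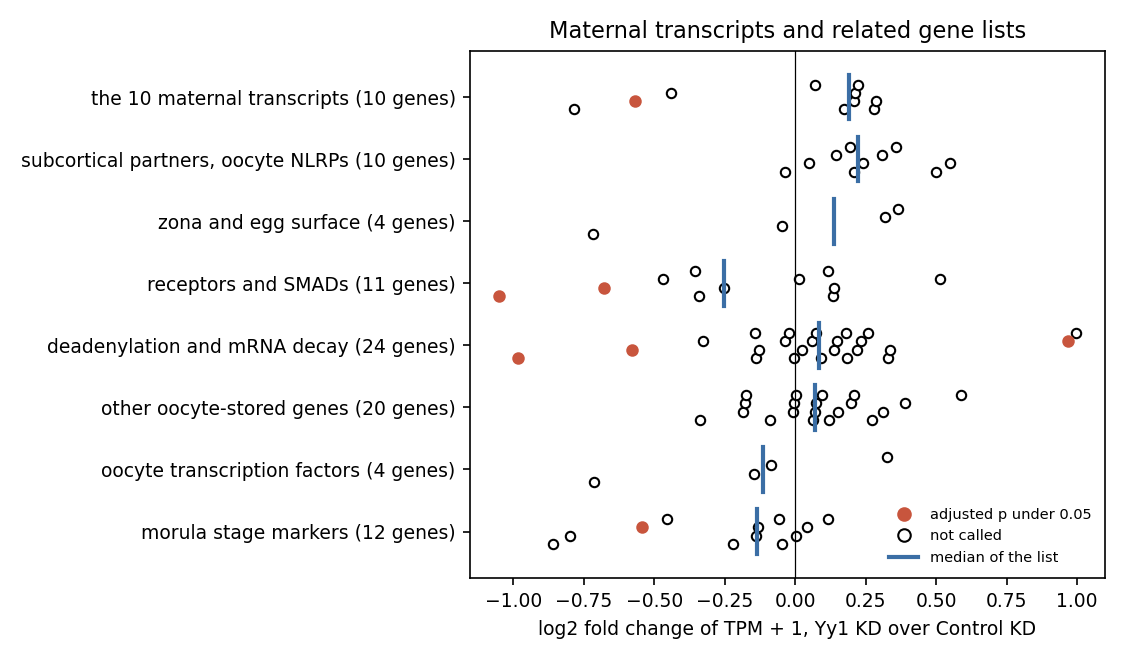
Log2 fold change of TPM + 1 between *Yy1* KD and Control KD for each tested gene of 8 lists; filled points were called (adjusted p under 0.05), open points were not, and the blue line is the median of the list. The medians are 0.19 for the 10 maternal transcripts, 0.22 for the partners and oocyte NLR genes, 0.07 for other oocyte-stored genes and -0.25 for receptors and SMADs. Limma called 1 of the 10 maternal transcripts, 2 of 11 receptors and SMADs and 1 of 12 morula markers. Of 24 deadenylation and decay genes it called 1 higher and 2 lower. None was called in the other lists, beside 6.11% of all genes tested.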

How the data were processed

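RNA-seq of 3 Control KD and 3 *Yy1* KD libraries was used, grouped by their labels. The authors trimmed reads (Trim Galore 0.6.7), aligned them to mm10 (Hisat2 2.2.1), removed ribosomal reads (bedtools), counted pairs on GENCODE vM25 genes without strand, dividing pairs on overlapping genes (featureCounts 2.0.1), and deposited TPM. The study fitted read counts, which were not used here. Here limma 3.58.1 (R 4.3.3) with a variance trend was fitted to log2(TPM + 1) of genes with at least 1 TPM in at least 3 libraries, and its 2-sided p-values were adjusted over all genes tested (Benjamini-Hochberg). It was tested on simulated data. On this scale the changes of low genes are understated. Single values were compared by exact permutation tests. Limma-voom called more genes over the whole table (2050) than limma (1061), so its calls stand beside a larger share. The share of all genes tested with an unadjusted p under 0.05 was not counted, so list counts at that p have no background.

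Exon lengths and coordinates are from GENCODE vM21 (54312 of 55364 versioned identifiers matched, 98.1%). TPM times exon length gave read pairs, whole for between 80.6% and 81.6% of values under 20 (within 0.01 of a pair). *H1foo* is listed as *H1f8*. The genes, lists and tests were chosen with earlier results of these data known. Named genes are the 10 genes, *Yy1*, called genes of each list and its 3 highest, and other genes, those overlapping or next to *Khdc3* and *Ooep*, and *Nlrp4a*, *Cdh1*, *Sox2*, *Smad3*, *Btg2*, *Pan3* and *Sohlh2*, chosen after their values were seen. Nothing says that the pools came from separate cultures, so p-values measure the spread between these libraries. Alternatives were another pseudocount, filters, scalings, limma-voom, the replicate number as a block and the omission of each library in turn. Repetitive elements were not analysed here. Python 3.11.15 drew the figures.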

Additional observations from a re-analysis of the deposited data

How the results depend on the processing

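Of 130 alternative values of the log2 fold change of the 10 genes, 122 kept their direction and their side of the threshold, 7 lost the call of *Khdc3* and 1, *Nlrp5* without Control KD replicate 3, reversed (-0.11, with 0.29 at the other end of the fits that leave out 1 library). The number of genes called over the whole table was 1061 (333 higher and 728 lower). It was 347 without a filter on low values (77 higher and 270 lower), 2050 with limma-voom on recovered read pairs (869 and 1181) and 287 with the replicate block (69 and 218). With quantile normalization it was 388 higher and 548 lower. Leaving out 1 library gave between 75 and 418 genes (22 to 92 higher, 53 to 326 lower). The number of the 10 genes called was 1, and 0 without a filter and with the replicate block; leaving out 1 library gave between 0 and 1. The median of the 10 log2 fold changes was 0.27 with quantile normalization and between 0.060 and 0.30 when 1 library was left out. The call of *Khdc3* was lost with the replicate block (adjusted p = 0.0753), as were those of *Tgfbr1*, *Smad7*, *Cnot6* and *Btg3*; it held with a pseudocount of 0.1, with a mean TPM of at least 5, with both other scalings, with limma-voom, without *Yy1* KD replicate 1 and with *Gm20509* added, a setting chosen after seeing the data; its adjusted p ranged from 0.00365 to 0.125. A mean TPM of at least 5 removed *Ooep*. Samples with the same replicate number showed little shared deviation (correlation across genes between -0.0039 and 0.075 for the 3 pairs of equal number). For the 6 pairs of unequal number it was between -0.071 and 0.041, and not every sample correlated best with its own number. With 3 libraries per group, this check did not show a pairing by number and cannot exclude one. Fits without 1 library leave an arm of 2. At 15 to 76 read pairs, depth limits *Ooep* most.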
